A study of Homo sapiens with 11 samples.

Results

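The 8 genes described here encode proteins that bind AU-rich elements in mRNA: ZFP36, ZFP36L1, ZFP36L2, HNRNPD, KHSRP, ELAVL1, TIA1 and TIAL1. They are 8 of the 31325 gene symbols measured. ZFP36L1 was chosen by its fall after miR-365a-3p, which was among the largest of all genes in both cell lines, so its response is given as a description with no test. The other 7 were selected by function, as the rest of its family and the best known binders of the same element. That choice was made with earlier results of these data known. All 8 symbols matched a current human gene in RefSeq.

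MDA-MB-231 and SKOV3 cells received a synthetic mimic of the microRNA miR-365a-3p or a control miRNA by transfection, and the study measured mRNA on HumanHT-12 v4 BeadChips, Illumina arrays that read the brightness of labelled cRNA on gene probes. MDA-MB-231 is a human basal-like breast cancer line, and SKOV3 is a human ovarian cancer line, of which the study's methods name the derivative SKOV3.ip1. Each group is 1 established line given a mimic at a level that need not resemble that of the cell's own miRNA. The labels give the same time of 48 after transfection for all 4 groups, while the design text of the series gives 24 h. The groups were miR-365a-3p in MDA-MB-231 (3 arrays), control miRNA in MDA-MB-231 (3 arrays), miR-365a-3p in SKOV3 (3 arrays) and control miRNA in SKOV3 (2 arrays). All 11 arrays were used. Nothing says that the arrays of a group came from separate cultures, so p-values measure the spread between these arrays, which may be technical.

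AU-rich elements are stretches of A and U, often built on the pentamer AUUUA, in the 3′ untranslated regions of short-lived mRNAs such as those of cytokines, growth factors and immediate early genes. The proteins that bind them set how long such an mRNA lasts and how well it is translated. Proteins of the ZFP36 family and KHSRP recruit deadenylases, decapping enzymes and the exosome, ELAVL1 protects many of the mRNAs it binds, the isoforms of HNRNPD do either, and TIA1 and TIAL1 hold mRNAs back from translation.

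The mature sequence of the transfected miRNA is shown because its seed, bases 2 to 8 in capitals, is the part that pairs with target mRNAs. RefSeq places it on GRCh38.p14 at chr16:14309340-14309361 on the plus strand.
hsa-miR-365a-3p: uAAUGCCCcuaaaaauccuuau
A second locus, at chr17:31575478-31575499 on the plus strand, gives hsa-miR-365b-3p with the identical 22 bases, and these 2 are the only mature miRNAs of the table with this seed. A target site would carry the complement GGGCAUU. No transcript sequences were used here, so whether any of the 8 mRNAs holds such a site was not tested.

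Values are log2 signals as deposited, quantile normalized across the 11 arrays, which makes the distribution of all rows the same on every array. Before that step the arrays differed by treatment: the 75th percentile of the deposited log2 values was 7.62 ± 0.051 with miR-365a-3p and 7.91 ± 0.037 with control miRNA in MDA-MB-231 (SD, n = 3 each). In SKOV3 it was 7.74 ± 0.065 (n = 3) and 8.01 ± 0.043 (n = 2). Between 5187 and 5876 rows stood above a log2 signal of 8 on the MDA-MB-231 miR-365a-3p arrays against 7044 to 7474 on their controls, and 5929 to 6707 against 7686 to 8026 in SKOV3. Array medians lay between 7.35 and 7.41, so a signal near that level is close to the floor, where a fall is understated. The part of these array differences in the results was not tested. Of the line markers, ERBB2 was higher in control SKOV3 (10.86) than in control MDA-MB-231 (7.61) and VIM was high in both (13.79 and 13.70 log2 signal in MDA-MB-231 and SKOV3) and does not separate them.

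Of the 7 genes chosen by function, 5 fell with miR-365a-3p in MDA-MB-231 and the same 5 fell in SKOV3: ZFP36, ZFP36L2, HNRNPD, KHSRP and ELAVL1. None rose. A gene was called where its limma p-value, after Benjamini-Hochberg adjustment across the 31325 rows, was under 0.05. Of all rows, 11.7% fell and 14.4% rose in MDA-MB-231, 7.11% fell and 7.25% rose in SKOV3, and 5.39% fell in both lines while 5.76% rose in both. The median log2 difference of the 7 genes was -0.38 in MDA-MB-231 and -0.43 in SKOV3, against 0.0064 and 0.0066 over all rows. In 6 of the 8 genes, ZFP36L1 among them by its selection, every miR-365a-3p array read below every control array of its line in both lines, as 10.3% of all rows did.

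**Figure D1:**
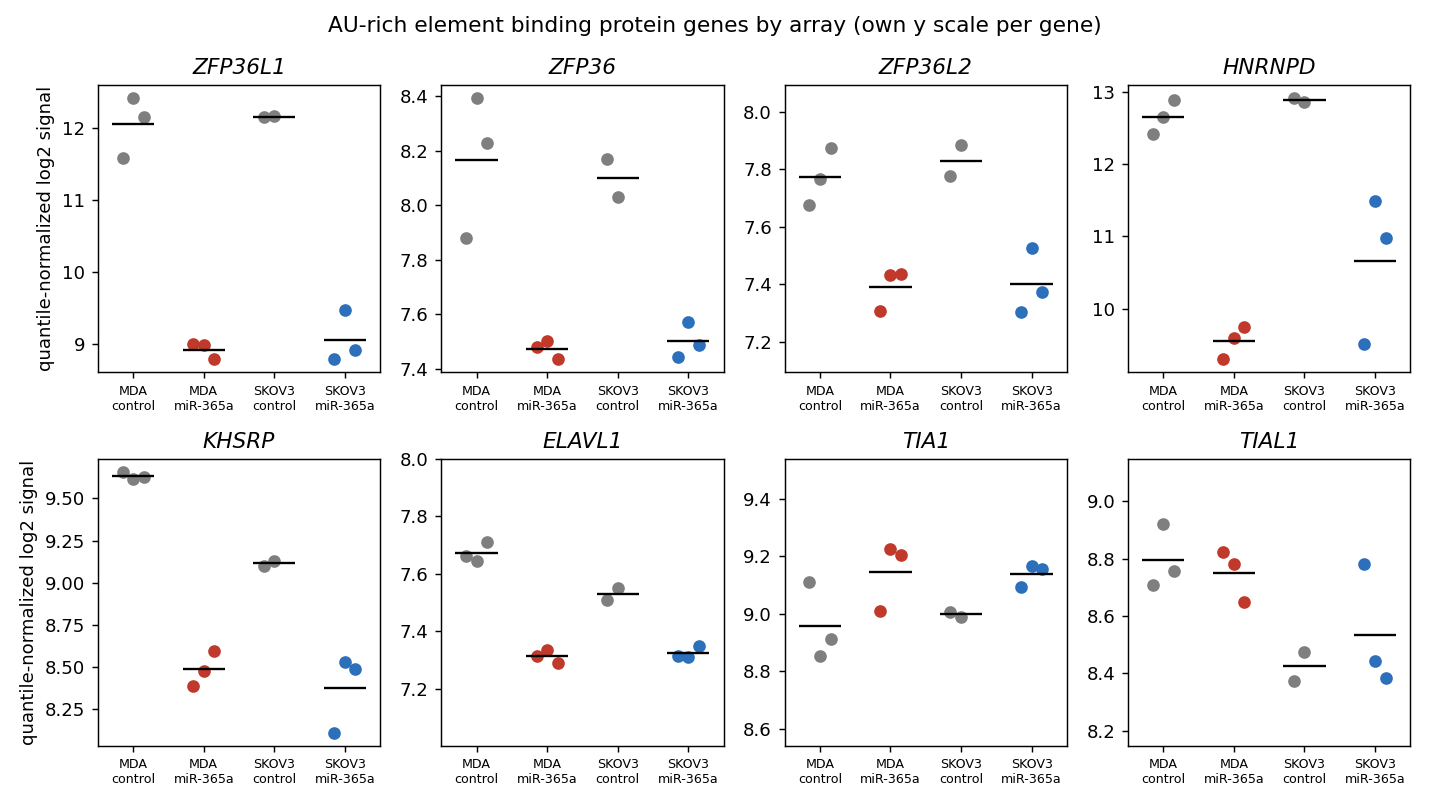
Quantile-normalized log2 signal (y axis, own scale for each gene) of the 8 genes on each of the 11 arrays, with points for arrays and lines for group means. The blue and red miR-365a-3p points lie below the grey control points of their line for every gene except TIA1 and TIAL1, and SKOV3 miR-365a-3p replicate 1 is far below the other 2 for HNRNPD.

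ZFP36L1 is a zinc finger protein that binds AU-rich elements and hands the mRNA to the CCR4-NOT deadenylase. Its log2 signal in MDA-MB-231 was 11.59, 12.42 and 12.16 on control replicates 1 to 3 and 9.00, 8.98 and 8.79 with miR-365a-3p. In SKOV3 it was 12.16 and 12.17 on the controls and 8.80, 9.47 and 8.92 with miR-365a-3p. All 5 control arrays were high, all 6 miR-365a-3p arrays were low, and the groups did not overlap. Group means were 12.06 ± 0.43 and 8.92 ± 0.11 in MDA-MB-231 (SD, n = 3 each) and 12.17 ± 0.0068 (n = 2) and 9.06 ± 0.36 (n = 3) in SKOV3.

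The log2 difference of ZFP36L1 was -3.13 in MDA-MB-231, at position 15 from the largest fall among all rows, and -3.10 in SKOV3, at position 5. Within an array the gene moved from the 98.0 to 99.0 percentile of rows on MDA-MB-231 controls to the 87.4 to 88.8 percentile, and from the 98.7 to 98.8 percentile to the 87.4 to 91.7 percentile in SKOV3. It stayed well above the floor with miR-365a-3p, so the fall was measured on both sides.

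ZFP36, also called tristetraprolin, is the founding member of the family and the classic destabilizer of TNF mRNA. Its log2 signal was 7.88, 8.39 and 8.23 on MDA-MB-231 controls and 7.48, 7.50 and 7.44 with miR-365a-3p. In SKOV3 the controls read 8.17 and 8.03, and the miR-365a-3p arrays 7.44, 7.57 and 7.49. The miR-365a-3p arrays lay close together and below every control in both lines, while control replicate 1 of MDA-MB-231 was the lowest of the controls. ZFP36 fell, with a log2 difference of -0.69 in MDA-MB-231 (SE 0.11, limma adjusted p = 0.00193) and -0.60 in SKOV3 (SE 0.12, adjusted p = 0.0132). The SKOV3 call was lost without control replicate 1 (adjusted p = 0.119) or control replicate 2 (adjusted p = 0.0631).

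ZFP36L2, the remaining member of the family, shares the paired CCCH zinc fingers and the deadenylase partners. It read 7.68, 7.77 and 7.87 on MDA-MB-231 controls against 7.31, 7.43 and 7.44 with miR-365a-3p, and 7.78 and 7.88 on SKOV3 controls against 7.30, 7.53 and 7.37, all as log2 signal. The groups did not overlap in either line, and the miR-365a-3p values were at or near the floor. ZFP36L2 fell, with a log2 difference of -0.38 in MDA-MB-231 (SE 0.071, limma adjusted p = 0.00413) and -0.43 in SKOV3 (SE 0.079, adjusted p = 0.00748). Without SKOV3 control replicate 2 the SKOV3 call was lost (adjusted p = 0.0866). All 3 family members were thus lower with miR-365a-3p in both lines, and the log2 differences of ZFP36 and ZFP36L2, whose control signals lay nearer the floor, were smaller than that of ZFP36L1.

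HNRNPD, known as AUF1, is a nuclear ribonucleoprotein whose isoforms shorten or lengthen the life of the mRNAs they bind. Its log2 signal in MDA-MB-231 was 12.42, 12.66 and 12.90 on the controls and 9.30, 9.60 and 9.75 with miR-365a-3p. In SKOV3 it was 12.92 and 12.87 on the controls and 9.51, 11.49 and 10.98 with miR-365a-3p. The groups did not overlap in either line, but the SKOV3 miR-365a-3p arrays were spread widely, with replicate 1 apart from the other 2.

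HNRNPD fell by 3.11 on the log2 scale in MDA-MB-231 (SE 0.43, limma adjusted p = 0.000854), at position 16 from the largest fall of all rows and next to ZFP36L1. In SKOV3 it fell by 2.23 (SE 0.48, adjusted p = 0.0146), at position 51. The mean of the SKOV3 miR-365a-3p arrays was 10.66 ± 1.03 (SD, n = 3) against 12.89 ± 0.037 on the controls (n = 2). Across the same arrays the SD of the differences between replicates 1 and 2, over rows with a mean above 8, was 0.473, the largest of all replicate pairs. Without SKOV3 miR-365a-3p replicate 1 the log2 difference was -1.66 (adjusted p = 0.00213), and the call was lost without control replicate 1 (adjusted p = 0.0944), without control replicate 2 (adjusted p = 0.0983) and with SKOV3 fitted alone (adjusted p = 0.123).

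KHSRP is a KH-domain protein that brings mRNAs with AU-rich elements to the exosome and also takes part in miRNA processing. It read 9.66, 9.61 and 9.63 on MDA-MB-231 controls and 8.38, 8.48 and 8.60 with miR-365a-3p (log2 signal). SKOV3 controls read 9.10 and 9.13, and the miR-365a-3p arrays 8.11, 8.53 and 8.49. Controls were tight in both lines, no groups overlapped, and SKOV3 miR-365a-3p replicate 1 was again the lowest. KHSRP fell, with a log2 difference of -1.15 in MDA-MB-231 (SE 0.10, limma adjusted p = 9.5e-05) and -0.74 in SKOV3 (SE 0.11, adjusted p = 0.00311). With SKOV3 fitted alone its adjusted p was 0.0523.

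ELAVL1, known as HuR, binds many of the same mRNAs and is known for protecting them from decay. Its log2 signal was 7.66, 7.65 and 7.71 on MDA-MB-231 controls and 7.31, 7.33 and 7.29 with miR-365a-3p. In SKOV3 it was 7.51 and 7.55 on the controls and 7.31, 7.31 and 7.35 with miR-365a-3p. Every miR-365a-3p array lay at the 12.7 to 40.6 percentile of its rows, at the floor, where the size of a fall is understated. ELAVL1 fell, with a log2 difference of -0.36 in MDA-MB-231 (SE 0.024, limma adjusted p = 2.46e-05) and -0.21 in SKOV3 (SE 0.027, adjusted p = 0.00141).

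TIA1 and TIAL1 are related proteins that silence the translation of bound mRNAs and gather in stress granules. TIA1 read 9.11, 8.85 and 8.91 on MDA-MB-231 controls and 9.01, 9.23 and 9.21 with miR-365a-3p, and 9.01 and 8.99 on SKOV3 controls against 9.09, 9.17 and 9.16 (log2 signal). The MDA-MB-231 groups overlapped and the SKOV3 groups did not. Its log2 difference was 0.19 in MDA-MB-231 (95% interval 0.019 to 0.36, limma adjusted p = 0.106) and 0.14 in SKOV3 (-0.048 to 0.33, adjusted p = 0.380), and on the deposited values without quantile normalization it was -0.11 and -0.046. TIA1 passed the test in MDA-MB-231 without miR-365a-3p replicate 1 (log2 difference 0.25, adjusted p = 0.0315) or without control replicate 1 (0.27, adjusted p = 0.0199).

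TIAL1 read 8.71, 8.92 and 8.76 on MDA-MB-231 controls and 8.82, 8.78 and 8.65 with miR-365a-3p, and 8.38 and 8.48 on SKOV3 controls against 8.78, 8.44 and 8.38 (log2 signal). The groups overlapped in both lines. Its log2 difference was -0.045 in MDA-MB-231 (95% interval -0.28 to 0.19, limma adjusted p = 0.851) and 0.11 in SKOV3 (-0.16 to 0.38, adjusted p = 0.711). On the deposited values the difference was -0.38 in MDA-MB-231 and passed the test (adjusted p = 0.0176), and with median centring of the arrays it was -0.35 (adjusted p = 0.0253). The scaling thus moved the sign of TIA1 in both lines and of TIAL1 in SKOV3, and the call of TIAL1 in MDA-MB-231, whereas the other 6 genes were lower with miR-365a-3p under all 4 scalings in both lines.

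**Figure D2:**
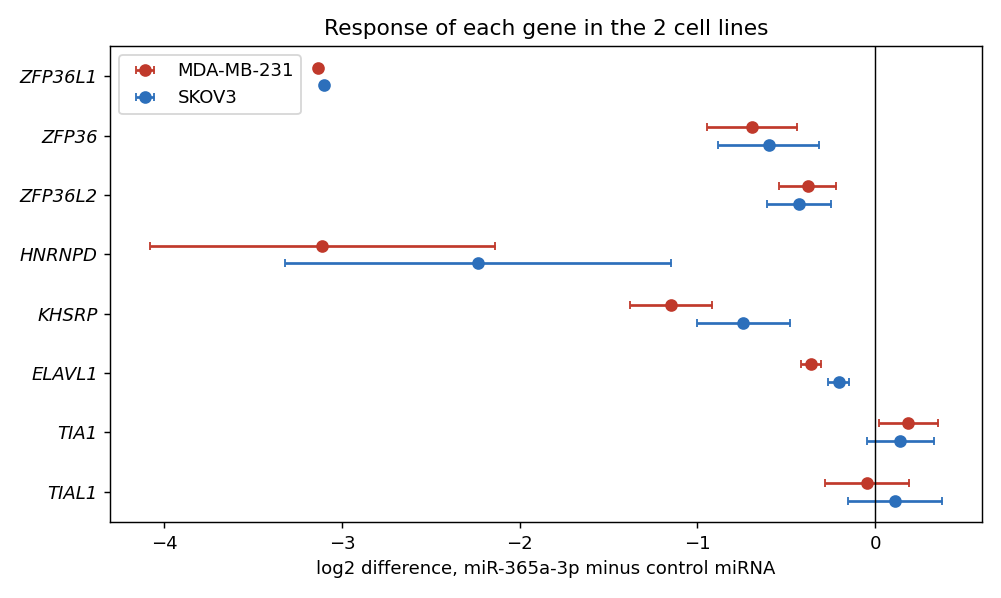
Log2 difference between miR-365a-3p and control miRNA (x axis) for each of the 8 genes in MDA-MB-231 (red) and SKOV3 (blue), with 95% intervals from limma, none being drawn for ZFP36L1, which was chosen by this contrast. ZFP36L1 and HNRNPD stand near -3 in MDA-MB-231, the SKOV3 point of HNRNPD is at -2.23, and the points of TIA1 and TIAL1 lie near 0.

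**Figure D3:**
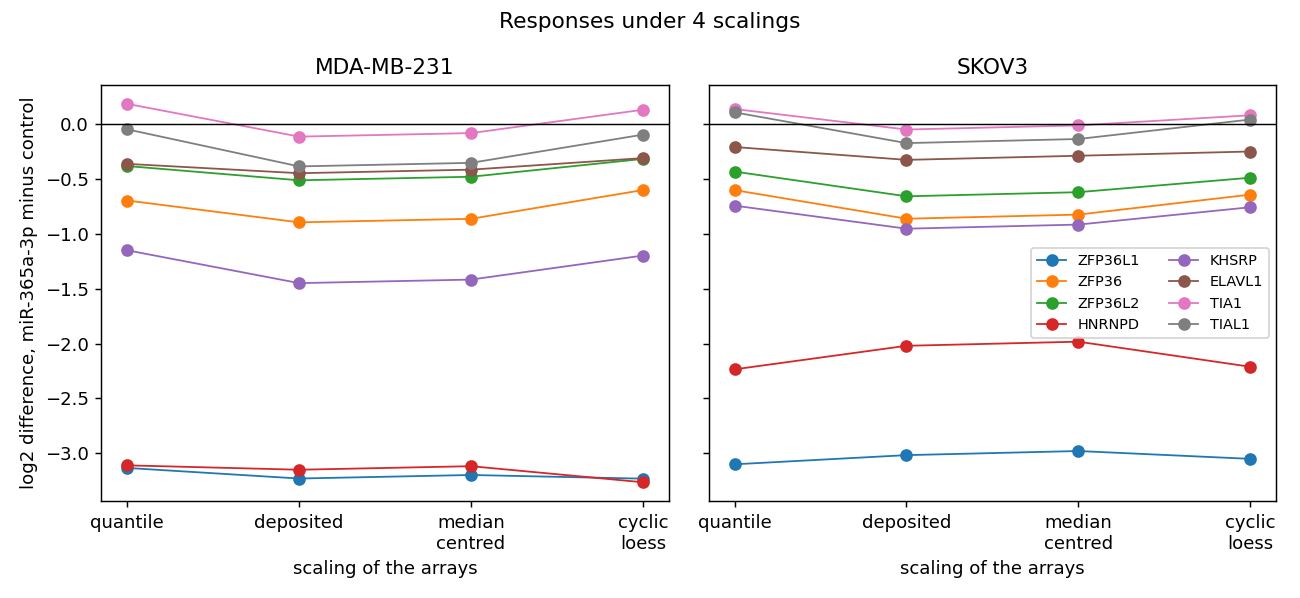
The same log2 differences (y axis) under 4 scalings of the arrays (x axis): quantile normalized, as deposited, centred on the array median, and cyclic loess within each line. Points are fitted differences, and only TIA1 in both lines and TIAL1 in SKOV3 change sign.

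Whether the response differed between the lines was tested as the difference of the 2 log2 differences, MDA-MB-231 minus SKOV3. Of the 7 genes chosen by function, 0 passed the limma test, against 2.54% of all rows, and 2 had an unadjusted p under 0.05, as 12.8% of all rows did. These were ELAVL1, with a difference of -0.15 (limma adjusted p = 0.0742), and KHSRP, with -0.41 (limma adjusted p = 0.286). For HNRNPD the difference was -0.88 with a 95% interval of -2.33 to 0.58 (limma adjusted p = 0.675), too wide to show whether the lines responded alike. Without SKOV3 miR-365a-3p replicate 1, HNRNPD (-1.44, limma adjusted p = 0.0311) and KHSRP (-0.53, adjusted p = 0.0109) passed the test, both with the larger fall in MDA-MB-231. For ZFP36 the difference was -0.095 (-0.48 to 0.29), for ZFP36L2 0.050 (-0.19 to 0.29), for TIA1 0.047 (-0.21 to 0.30) and for TIAL1 -0.16 (-0.51 to 0.20), each with its 95% interval.

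The control arrays compare the lines without miR-365a-3p. The 7 genes chosen by function were not selected on it, whereas the control values of ZFP36L1 were part of the falls by which it was chosen, so its difference of -0.11 on the log2 scale between the controls is a description. KHSRP was 0.52 higher on the log2 scale in MDA-MB-231 than in SKOV3 (SE 0.11, limma adjusted p = 0.0135) and ELAVL1 0.14 higher (SE 0.027, adjusted p = 0.00609). Of all rows, 7.76% were higher in MDA-MB-231 and 8.34% higher in SKOV3. TIAL1 did not overlap between the controls, at 0.37 higher in MDA-MB-231, but did not pass the test (95% interval 0.10 to 0.64, adjusted p = 0.0678). It passed among rows above the median of row means (adjusted p = 0.0381), with the control arrays fitted alone (0.0348) and without SKOV3 miR-365a-3p replicate 1 (0.0097). HNRNPD differed by -0.23 (95% interval -1.32 to 0.85, adjusted p = 0.880). ZFP36 (0.067, -0.22 to 0.35), ZFP36L2 (-0.059, -0.24 to 0.12) and TIA1 (-0.039, -0.23 to 0.15) had smaller differences that did not pass either. The KHSRP call was lost on the deposited values (adjusted p = 0.141), with median centring (adjusted p = 0.126), and without SKOV3 control replicate 1 (0.0939) or 2 (0.0777), and that of ELAVL1 without SKOV3 control replicate 1 (0.0755).

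Likeness to ZFP36L1 was measured as the root mean square difference over the 11 arrays after each gene was centred on its own mean, among 6852 other rows with a mean above 8. The most alike were MYH9, a non-muscle myosin heavy chain (0.255), PIK3R2, a regulatory subunit of PI3-kinase (0.262), LPP, a LIM protein of focal adhesions (0.320), POTEF (0.348) and EPN1, an endocytic adaptor (0.372), all on the log2 scale. POTEF is uncertain, since its transcript holds a stretch close to beta-actin. The median over all these rows was 1.69. Of the genes chosen by function, HNRNPD was the most alike at 0.573, position 35, followed by KHSRP at 1.10, while TIA1, at 1.66, was near the median. These distances describe patterns that the miR-365a-3p contrasts dominate, by which ZFP36L1 had been chosen.

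The promoters of the genes with the largest falls among the 8 are shown because these genes moved together. They are the 250 bases before each start that RefSeq lists on GRCh38.p14, 5′ to 3′ on the gene's strand, ZFP36L1 with 2 starts at chr14:68796244-68796493 and chr14:68793417-68793666 and HNRNPD at chr4:82373992-82374241, all on the minus strand. Capitals mark matches on either strand to the GC box, GGGCGG, the CCAAT box, the TATA box, spelled TATAAA, or the cyclic AMP response element, spelled TGACGTCA.
ZFP36L1 start 1: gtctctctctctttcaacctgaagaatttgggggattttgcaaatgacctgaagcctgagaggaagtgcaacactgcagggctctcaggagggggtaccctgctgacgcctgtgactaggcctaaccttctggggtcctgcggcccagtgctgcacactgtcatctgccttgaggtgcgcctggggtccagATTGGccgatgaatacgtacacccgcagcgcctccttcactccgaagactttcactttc
ZFP36L1 start 2: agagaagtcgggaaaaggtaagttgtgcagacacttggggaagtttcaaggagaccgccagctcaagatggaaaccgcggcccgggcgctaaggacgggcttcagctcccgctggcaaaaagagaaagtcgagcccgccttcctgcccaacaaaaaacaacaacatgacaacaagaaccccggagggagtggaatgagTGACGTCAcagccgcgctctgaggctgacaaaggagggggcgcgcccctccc
HNRNPD: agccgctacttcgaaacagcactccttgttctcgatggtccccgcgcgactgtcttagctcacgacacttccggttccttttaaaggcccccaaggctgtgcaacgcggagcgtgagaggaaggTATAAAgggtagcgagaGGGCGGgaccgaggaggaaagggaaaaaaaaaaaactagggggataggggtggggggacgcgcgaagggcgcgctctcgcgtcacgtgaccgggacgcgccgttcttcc
The ZFP36L1 windows held 1 CCAAT box (start 1) and 1 cyclic AMP response element (start 2), and the HNRNPD window 1 GC box and 1 TATA box, so no motif of the search was common to both genes. No window read here held a CArG box. Of 35114 windows of the same length, 42.6% held a GC box, 32% a CCAAT box, 10.7% a TATA box, 1.65% a cyclic AMP response element and 1.16% a CArG box. GC content was 56.4% and 58.4% in the ZFP36L1 windows and 60% in that of HNRNPD, near the median of 58% over all windows. The ZFP36 window had 3 GC boxes, that of KHSRP 2 GC boxes and 3 CCAAT boxes, and that of TIAL1 no match. TIA1, with 2 starts, had 1 GC box and 1 TATA box in one window, as HNRNPD did, and 1 GC box in the other. The promoters of ZFP36L2 and ELAVL1 were not analysed here. A match of letters is a description and not a binding site.

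Beyond the 8 genes, 4 lists of the pathway with 121 different genes were read in the same fit: other proteins that bind AU-rich elements, the decay machinery, the signalling proteins that act on the binders, and mRNAs with AU-rich elements. Of the 121, 20 fell and 11 rose in both lines, so that 64.5% of these calls were falls. Of the calls over all rows, 48.3% were falls. On the deposited values 34 listed genes fell and 6 rose (85% falls), while 10.1% of all rows fell and 2.95% rose (77.5% falls). With median centring 29 fell and 6 rose (82.9%), against 8.6% and 3.75% of all rows (69.6%). With cyclic loess 21 fell and 7 rose (75%), against 6.28% and 4.46% of all rows (58.5%). Brighter rows were called more often. Of the 6853 rows with a mean above 8, 13.4% fell and 21% rose in both lines, and their median log2 difference was 0.17 in MDA-MB-231 and 0.15 in SKOV3.

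**Figure D4:**
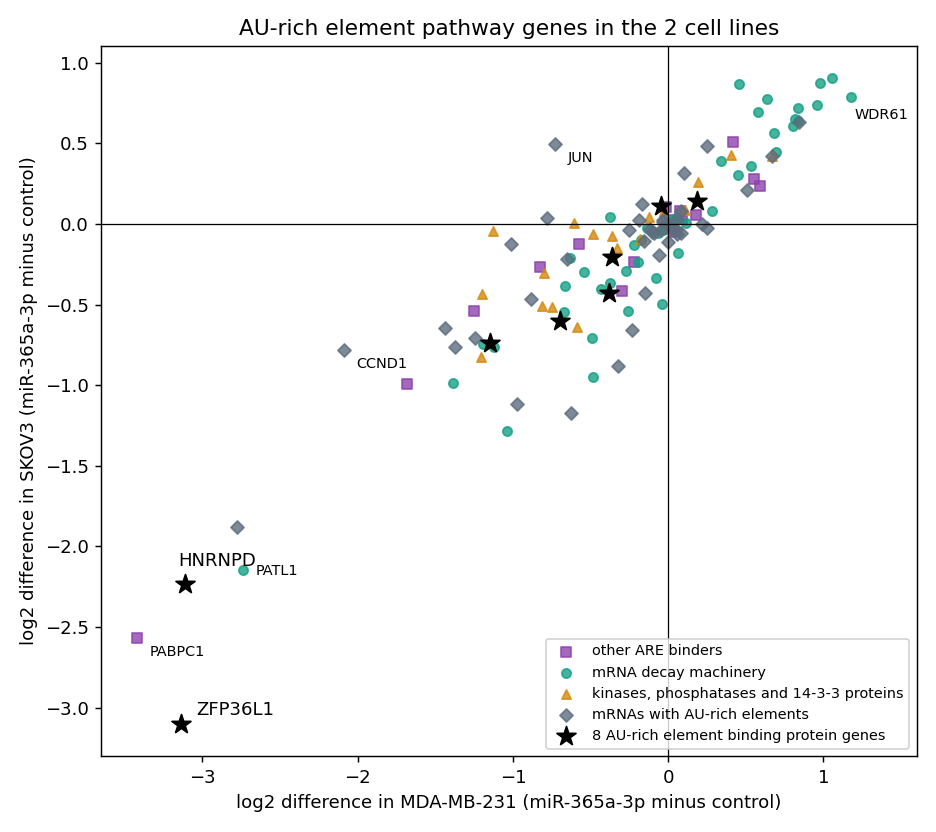
Log2 difference in MDA-MB-231 (x axis) against that in SKOV3 (y axis), miR-365a-3p minus control, for the 8 genes (stars) and the 4 pathway lists (other symbols). ZFP36L1, HNRNPD, PABPC1 and PATL1 are far into the lower left, and JUN falls in MDA-MB-231 and rises in SKOV3. Each line has its own controls.

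Among 17 other binders of AU-rich elements, 5 fell and 2 rose in MDA-MB-231, and 1 fell and 0 rose in SKOV3. Of all rows, 11.7% fell and 14.4% rose in MDA-MB-231, and 7.11% and 7.25% in SKOV3. Of rows with a mean above 8, as 11 of the 17 genes had, 13.4% fell and 21% rose in both. Of the 17, 1 (5.88%) fell in both, beside 5.39% of all rows. That gene was PABPC1, the cytoplasmic poly(A) tail binding protein, with log2 differences of -3.42 in MDA-MB-231 (limma adjusted p = 4.52e-05) and -2.57 in SKOV3 (adjusted p = 0.000718). HNRNPA0 and HNRNPAB fell in MDA-MB-231 (-1.68 and -1.25, limma adjusted p = 0.00453 and 0.00146). In SKOV3 they were lower but did not pass (-0.99 and -0.54, adjusted p = 0.113 and 0.151). The 2 rises in MDA-MB-231 were AUH (0.59) and FXR1 (0.55). HNRNPA1 (log2 differences of -0.30 in MDA-MB-231 and -0.42 in SKOV3), HNRNPC (0.41 and 0.51) and YBX1 (-0.22 and -0.23) did not pass in either line. The neuronal ELAVL2, ELAVL3 and ELAVL4, relatives of ELAVL1, had log2 differences between -0.029 and 0.18 and did not pass. Their group means were 7.27 to 7.63, at or near the floor, so their values say little about a fall. They are still counted among the 17. The list's median log2 difference was 0.0098 in MDA-MB-231 and -0.029 in SKOV3. Of the 7 genes chosen by function, 71.4% fell in both lines, and the difference between these shares was not tested. Both sets were chosen with earlier results of these data known, so the 2 shares are a description.

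The decay machinery, which shortens the poly(A) tail, removes the cap and degrades the mRNA from either end, moved in both directions. Of its 46 genes, 11 (23.9%) fell and 10 (21.7%) rose in both lines. Of all rows, 5.39% fell and 5.76% rose in both. Of rows with a mean above 8, as 33 of the 46 genes had, 13.4% fell and 21% rose, so the share of rises was near that of bright rows. Among 17 deadenylase subunits and partners, 5 fell and 0 rose in both, and among 15 decapping and 5′ decay genes 5 fell and 4 rose. Of those 15, the 7 LSM proteins, which form the ring on the shortened tail, had 0 falls and 4 rises. The other 8 had 5 falls and 0 rises. The exosome with the SKI complex showed 1 fall and 6 rises among 14. The division into complexes was not planned, and setting the LSM proteins apart follows the direction of the values, so these counts are a description.

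PATL1, a scaffold of decapping, fell, with log2 differences of -2.74 in MDA-MB-231 (limma adjusted p = 2.76e-06) and -2.15 in SKOV3 (adjusted p = 2.81e-05). DCP2, the decapping enzyme itself, fell with log2 differences of -1.38 and -0.99 (limma adjusted p = 0.000473 and 0.00874), and EDC4, its scaffold, of -1.04 and -1.28 (adjusted p = 0.00449 and 0.00537). CNOT1, the scaffold of the CCR4-NOT complex to which ZFP36 proteins bind, had differences of -1.12 and -0.76 (limma adjusted p = 0.000131 and 0.00323) and the deadenylase CNOT6 of -1.19 and -0.75 (adjusted p = 3.14e-05 and 0.00116). Both are named here after their values were seen, so that they passed the test follows from the choice. Of all rows, 11.7% fell and 14.4% rose in MDA-MB-231, and 7.11% and 7.25% in SKOV3. Of rows with a mean above 8, 26.2% fell and 39% rose in MDA-MB-231, and 15.3% and 23.4% in SKOV3. Of the 17 deadenylase subunits and partners, 9 fell and 1 rose in MDA-MB-231, and 7 fell and 0 rose in SKOV3. The rise was that of CNOT10 (0.45, limma adjusted p = 0.0103). CNOT7 did not pass in either line (0.11 and 0.0082). By the mean of both lines the largest rises were those of WDR61, a subunit of the SKI complex, with 1.18 and 0.79 (adjusted p = 6e-05 and 0.00164), LSM3 with 1.06 and 0.90 (adjusted p = 0.000894 and 0.00675) and LSM1 with 0.98 and 0.87 (adjusted p = 0.00169 and 0.00992).

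Rows of some families of small and large proteins, chosen with earlier results of these data known, moved apart in the same arrays. With a mean above 8, the median log2 difference of 74 cytosolic ribosomal protein genes was 0.29 in MDA-MB-231 and 0.23 in SKOV3, that of 31 respiratory complex I subunits 0.80 and 0.55, and that of 10 myosin heavy chain, dynein, laminin and filamin genes -2.16 and -1.39. LSM proteins are small and CNOT1 and EDC4 large, but not every small one rose. LSM2 fell in SKOV3 (log2 difference -0.54, limma adjusted p = 0.027). The part of this pattern in the values of the decay machinery and of the 8 genes was not tested.

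Kinases of the p38 and AKT pathways phosphorylate ZFP36 proteins, and 14-3-3 proteins then bind them and keep them from the deadenylase. Of 19 such kinases, phosphatases and 14-3-3 proteins, 10 fell and 2 rose in MDA-MB-231 and 2 fell and 1 rose in SKOV3. In both lines 2 (10.5%) fell and 1 (5.26%) rose. Of all rows, 11.7% fell and 14.4% rose in MDA-MB-231, 7.11% and 7.25% in SKOV3, and 5.39% and 5.76% in both. Of rows with a mean above 8, as 13 of the 19 genes had, 13.4% fell and 21% rose in both. The shares of the list called in both lines were thus not above those of bright rows. In single lines, 26.2% of bright rows fell and 39% rose in MDA-MB-231, and 15.3% and 23.4% in SKOV3. The difference of the list's MDA-MB-231 falls from that share was not tested. YWHAH, the eta 14-3-3 protein, fell, with log2 differences of -1.20 and -0.83 (limma adjusted p = 0.000124 and 0.00293), and PPP2R1A, the scaffold of protein phosphatase 2A, fell with -0.59 and -0.64 (adjusted p = 0.0056 and 0.0125). DUSP1, a phosphatase that switches off p38 and whose own mRNA has AU-rich elements, rose by 0.67 and 0.42 (adjusted p = 0.00118 and 0.0328). Of the 7 genes for 14-3-3 proteins, 5 fell and 1 rose in MDA-MB-231 and 1 fell in SKOV3. MAPK14, which encodes p38 alpha, did not pass in either line (-0.029 and 0.077). Its group means were 7.41 to 7.48, near the floor, so these values say little about a fall.

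The mRNAs that carry AU-rich elements are what these proteins act on. Of 40 such genes, 16 fell and 5 rose in MDA-MB-231, and 7 fell and 4 rose in SKOV3. In both lines 6 (15%) fell, 1 (2.5%) rose and 1 was called in opposite directions. Of all rows, 11.7% fell and 14.4% rose in MDA-MB-231, 7.11% and 7.25% in SKOV3, and 5.39% and 5.76% in both. Of rows with a mean above 8, as 16 of the 40 genes had, 13.4% fell and 21% rose in both. PLAU, the urokinase plasminogen activator, fell, with log2 differences of -1.37 in MDA-MB-231 and -0.77 in SKOV3 (limma adjusted p = 0.000228 and 0.0138), and NOTCH1, a receptor, with -0.97 and -1.11 (adjusted p = 0.00335 and 0.00581). DUSP1, above, was the gene that rose in both. TNF, the classic substrate of ZFP36, had log2 differences of 0.00052 and -0.11 and IL6 -0.034 and 0.023, and none of these passed. Both genes read at or near the floor, with group means of 7.28 to 7.45 for TNF and 7.40 to 7.60 for IL6. Their values therefore say little about a response. The list's median was -0.11 in MDA-MB-231 and -0.044 in SKOV3.

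JUN, an immediate early transcription factor, was the gene with opposite calls: it fell by 0.73 on the log2 scale in MDA-MB-231 (limma adjusted p = 0.000221) and rose by 0.50 in SKOV3 (adjusted p = 0.00541), and its responses differed by -1.23 (adjusted p = 0.00126). Over the 4 lists the difference between the lines passed the test for JUN, for ATF3 (0.21, adjusted p = 0.0207) and for TOB2, a deadenylase adaptor (0.26, adjusted p = 0.0439), beside the 2.54% of all rows given above. In SKOV3, ATF3 had a mean of 7.37 in both groups and TOB2 of 7.41 with miR-365a-3p. These are at the floor, which limits what could be measured of their responses in that line. Each array holds bulk RNA, so fewer cells with an mRNA and less of it per cell cannot be told apart for any of these genes.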

How the data were processed

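The labels' cell line and treatment put each of the 11 arrays in 1 of 4 groups. The authors amplified total RNA to biotin-labelled cRNA, and lumi is named in the submitters' processing notes, with quantile normalization in the methods. Values were deposited on a log2 scale, 1 for each symbol on each array. Whether a plain log2 or the variance-stabilizing transformation of lumi came first, how probes were combined and whether background was subtracted are not given in the sources used here, and no detection values were used.

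The deposited columns did not share a distribution and were quantile normalized with limma 3.58.1 (R 4.3.3). A model with 4 group means was fitted to all 31325 rows (lmFit, eBayes), tests were two-sided, and calls needed a Benjamini-Hochberg adjusted p under 0.05. The fit was tested on simulated data. The number of arrays limits the precision. No p-value is given for ZFP36L1 in the miR-365a-3p contrasts. The 8 genes, the 4 lists and the families of small and large proteins were chosen with earlier results of these data known.

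Named were all 8 genes, up to 3 falls and 3 rises of each list with the largest mean of the 2 log2 differences among genes called in both lines with the same sign, the 5 rows most like ZFP36L1, and a few others after their values were seen. Some genes of this rule and of the cell line markers are not reported here by name. Of the listed symbols, 1 (CELF1) is deposited as CUGBP1. Alternatives were deposited values, median centring, cyclic loess, rows above the median of row means, each line alone, a replicate block, an intensity trend with robust hyperparameters, an absolute log2 difference no smaller than 0.5, and leaving out single arrays. Motifs were searched in RefSeq promoter windows (GRCh38.p14). Whether equal replicate numbers pair arrays was checked from the correlation of their departures from the mean of each group.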

Additional observations from a re-analysis of the deposited data

How the results depend on the processing

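Of the 7 genes chosen by function, 5 were called in MDA-MB-231, and 3 were called there with a log2 difference of at least 0.5 as a further condition. With each array left out in turn, 5 to 6 were called in MDA-MB-231 and 2 to 5 in SKOV3, where 5 were called with all arrays, 3 with the line fitted alone, 3 with a log2 difference of at least 0.5 and 3 with the replicate block. No pairing of same-numbered arrays was seen: their deviations correlated at -0.12, 0.042 and 0.23 in MDA-MB-231 and at 0.039 and -0.073 in SKOV3. Arrays of different numbers ran from -0.47 to 0.35 in MDA-MB-231. The deviations of the 2 SKOV3 controls mirror each other, so the check cannot decide whether arrays pair there. With the replicate number as a block, 5 genes were called in MDA-MB-231, ZFP36 (adjusted p = 0.0766) and HNRNPD (adjusted p = 0.0517) were not called in SKOV3, and 17 listed genes fell and 8 rose in both lines. Between the controls 2 of the 7 genes were called, 1 on deposited values, 1 with median centring, 1 with a log2 difference of at least 0.5, and 0 to 3 with an array left out. The difference of response was called for 0 genes, and for 0 to 2 with an array left out. Of the listed genes, 20 fell in both lines, 34 on deposited values, 13 with a log2 difference of at least 0.5, and 11 to 21 with an array left out, and 11 rose, 6 on deposited values, 6 with median centring, 7 with cyclic loess, and 3 to 14 with an array left out. The lowest counts of listed genes came without a SKOV3 control: 11 fell and 6 rose without replicate 1, and 12 fell and 3 rose without replicate 2. The cause was not tested, but with 1 control left the SKOV3 comparison rests on an array assumed to vary like the other groups. Over the 19 alternatives ZFP36L1 differed by -3.38 to -2.97 in MDA-MB-231 and by -3.30 to -2.95 in SKOV3, and HNRNPD by -3.27 to -2.94 and by -2.65 to -1.66. No call changed direction. Signals of ELAVL1, ZFP36L2 and ZFP36 near the floor limit what could be measured of their falls.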
